A study of Mus musculus with 2 samples.

Results

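Genes for the nuclear pore and for the receptors that carry cargo through it were examined in mouse testis with and without UBR2, an enzyme that attaches ubiquitin to proteins with certain N-terminal residues. They were chosen by gene symbol: the numbered Nup, Kpna, Kpnb, Ipo, Xpo, Tnpo, Ranbp, Nxf and Nxt genes together with Cse1l, Ran, Rcc1, Rangap and Nutf2, wherever a probe set of the array names a single gene. This gave 50 of 12393 genes on the array, read by 95 probe sets. The rule uses names and no signal, though it was set with earlier results of these data known. The wild type testes and the UBR2-/- testes were taken from animals 17 days of age, on a background that mixes 129SV and C57BL. Each genotype had 1 Affymetrix mouse genome 430A 2.0 array, and the labels speak of 2 testes per genotype, from separate littermates. The sources used here do not say whether their RNA was pooled or which part of Ubr2 the mutant allele lacks. Since no genotype was replicated (n = 1), nothing could be tested, and each difference describes this pair of arrays.

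The nuclear pore complex is a channel through the nuclear envelope, built of ring scaffolds, a central channel lined with flexible repeats that bind transport receptors, filaments on the cytoplasmic side and a basket on the nuclear side. Importin alpha proteins recognise the classical nuclear localisation signal of a cargo and join importin beta for passage, while other importins and the exportins bind their cargo directly. The small GTPase Ran sets the direction, being loaded with GTP in the nucleus and made to hydrolyse it in the cytoplasm, and bulk mRNA leaves by a separate, Ran-independent receptor of the NXF and NXT families. Male germ cells are known for changing their set of importin alpha isoforms as they pass from spermatogonia through meiosis to spermatids.

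The signals are linear brightness values of probe sets on the deposited scale, and ratios are UBR2-/- over wild type on the log2 scale, after values under the 40th percentile of an array (24.4 for wild type and 24.7 for UBR2-/-) were raised to it as a floor. The brightest probe set stood for a gene, and 8091 genes with a mean signal of at least 24.55 were compared. Ubr2 itself, read by 1 probe set, gave 57.2 in wild type and 14.3, under the floor, in UBR2-/-, a difference of at least 2.32-fold. No source used here places this probe set relative to the mutation, which limits it as a check of the labels. Cell type markers were read from lists chosen with earlier results of these data known. Of all compared genes, 7.71% were lower in UBR2-/- by 1.5-fold or more and 4.25% were higher. In the list of pachytene spermatocyte markers, 10 of 10 genes were lower in UBR2-/- by 1.5-fold or more. Their summed signal went from 8640.3 in wild type to 1460.6 in UBR2-/-. Of these 10, 0 were listed at 0, and Pgk2 (4.1), Ccna1 (9.3), Adam3 (13.7) and Acr (20.5) were under the UBR2-/- floor. The 7 compared markers of early meiotic prophase had summed signals of 8157.9 and 8203.3 with none past 1.5-fold. The 6 compared spermatogonial markers had 4400.3 and 4993.8, again with none past 1.5-fold. The 7 compared Sertoli cell markers had 6527.1 and 8810.1, with 1 lower (Amh) and 0 higher, and the 5 myoid markers had 2344.5 and 3398.9, with 2 higher. Of the 4 Leydig cell markers, with sums of 956.7 and 979.4, 1 was lower and 1 higher, and of 5 spermatid markers only Prm1 was bright enough to be compared, at 35.3 and 94. In whole testis, fewer cells of a type and less RNA per cell cannot be told apart, and the part of these marker differences in the values of the pore and transport genes was not tested.

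Most pore and transport genes had nearly the same signal on both arrays. Of the 50 genes 49 were compared, and the remaining one, the X-linked Nxf7, was below the floor on both arrays at 6.6 and 8.4. Ranbp17, an importin beta family protein that is abundant in testis, was 2.12-fold lower in UBR2-/-. Nxt1, the partner of the mRNA export receptor, was 1.53-fold lower. Nxf2, an X-linked mRNA export receptor of germ cells, was 1.67-fold higher. Thus 2 of 49 members (4.08%) were at least 1.5-fold lower against 7.71% of all compared genes, and 1 of 49 (2.04%) was at least 1.5-fold higher against 4.25% of all compared genes. At least 2-fold lower was 1 member against 3.52% of all genes, and at least 2-fold higher were 0 members against 0.346%.

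The members lay in a narrow band a little below the other genes. Their log2 ratios had quartiles of -0.18 and 0.08 around a median of -0.06, while all 8091 genes had quartiles of -0.17 and 0.28 around a median of 0.07. Above 0 lay 20 of the 49 members (40.8%) against 58.9% of all genes, and 36 of the 49 lay below the median of all genes. The difference of the medians was -0.13, and it has no error estimate between animals. For single genes, the SD of the ratio of 1 probe set was 0.21, as derived from pairs of probe sets of 2894 genes, and 0.11 among 24 members read by several probe sets above the floor. Over all genes it depended on brightness, at 0.27 for dim pairs, 0.20 for intermediate and 0.15 for bright ones. This SD covers disagreement of probe sets on the same arrays only and holds no error between animals. Scaling on the bacterial and phage spike-in transcripts instead of the deposited scaling lowers the ratio of every probe set by 0.34 and the median of all genes to -0.27. It puts 9 members at least 1.5-fold lower, against 19.6% of all genes, and 0 higher, against 0.482%, and it leaves the members' median 0.14 below that of all genes (-0.14). Ratios are given on the deposited scale below, where small values above 0 turn with that scaling.

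**Figure D1:**
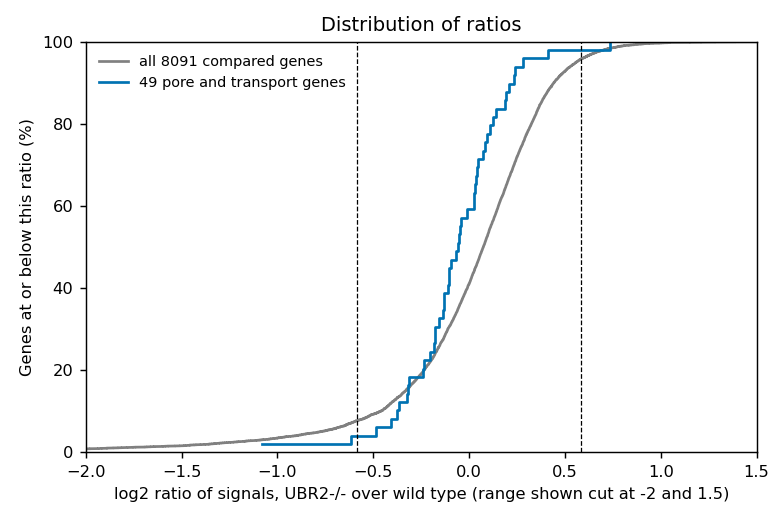
Cumulative percentage of genes (vertical axis) at or below each log2 ratio of UBR2-/- over wild type signal (horizontal axis), for all 8091 compared genes in grey and the 49 pore and transport genes in blue, with dashed lines at 1.5-fold. The blue curve is steeper and crosses the middle at -0.06, left of the grey curve at 0.07, and its ends are Ranbp17 at -1.08 and Nxf2 at 0.74.

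**Figure D2:**
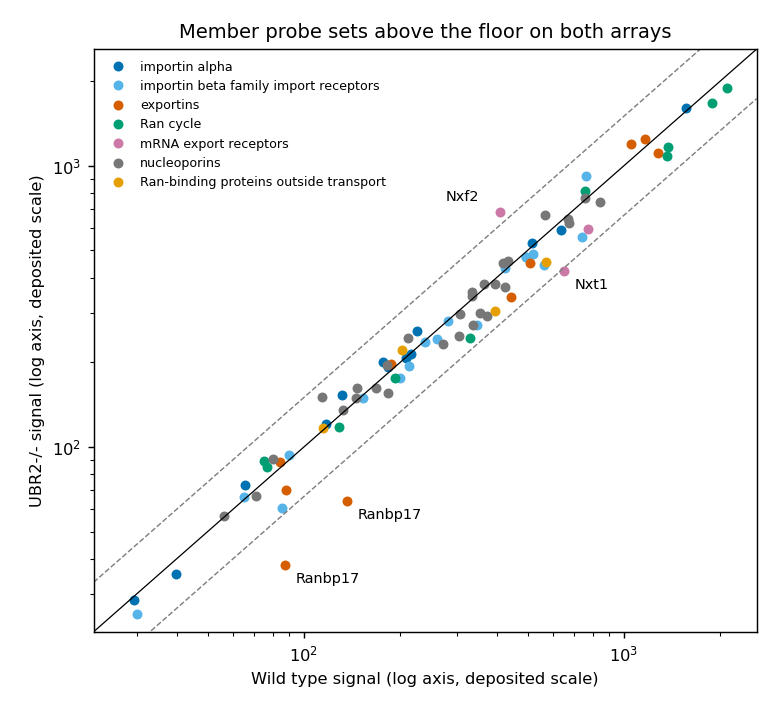
UBR2-/- signal against wild type signal, both on log axes and on the deposited scale, for the 87 probe sets of the members above the floor on both arrays, coloured by role. The solid line marks equal signals and the dashed lines 1.5-fold, and the only points outside them are both probe sets of Ranbp17, that of Nxt1 and that of Nxf2.

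The stretches of DNA just before the starts of the 3 genes that differed most are shown because they are where germ cell transcription factors would bind, together with that of Nxf1, the general relative of Nxf2. Each is the 250 bases upstream of the first start that the RefSeq table lists for the gene, on build GRCm38.p6, read 5′ to 3′ on the gene's strand. Ranbp17 is at chr11:33513754-33514003 on the minus strand, Nxt1 at chr2:148672365-148672614 on the plus strand, Nxf2 at chrX:134964755-134965004 on the minus strand and Nxf1 at chr19:8756853-8757102 on the plus strand. Capitals mark each match on either strand to AACNG, the core bound by MYB proteins such as the meiotic regulator A-MYB, and each CACGTG, the E-box, which was added after the sequences were seen.
Ranbp17: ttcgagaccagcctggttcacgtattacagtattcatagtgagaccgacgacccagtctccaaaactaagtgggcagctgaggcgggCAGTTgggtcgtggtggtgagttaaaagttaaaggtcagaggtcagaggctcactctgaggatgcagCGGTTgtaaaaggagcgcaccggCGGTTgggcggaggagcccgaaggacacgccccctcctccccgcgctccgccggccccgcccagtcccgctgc
Nxt1: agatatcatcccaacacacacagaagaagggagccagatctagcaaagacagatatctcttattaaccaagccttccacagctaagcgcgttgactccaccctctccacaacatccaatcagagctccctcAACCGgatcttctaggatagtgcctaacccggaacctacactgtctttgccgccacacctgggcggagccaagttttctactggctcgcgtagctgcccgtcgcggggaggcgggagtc
Nxf2: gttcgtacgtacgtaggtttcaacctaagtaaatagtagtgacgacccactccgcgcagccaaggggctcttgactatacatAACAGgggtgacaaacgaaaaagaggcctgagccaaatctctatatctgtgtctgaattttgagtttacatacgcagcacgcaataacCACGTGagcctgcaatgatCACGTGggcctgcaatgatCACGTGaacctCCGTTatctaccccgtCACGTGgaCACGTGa
Nxf1: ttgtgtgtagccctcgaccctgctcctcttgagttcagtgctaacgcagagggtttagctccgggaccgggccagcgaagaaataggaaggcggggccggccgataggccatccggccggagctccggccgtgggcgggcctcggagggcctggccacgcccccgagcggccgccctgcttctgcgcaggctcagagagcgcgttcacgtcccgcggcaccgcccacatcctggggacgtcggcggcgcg
The windows of Ranbp17, Nxt1, Nxf2 and Nxf1 hold 3, 1, 2 and 0 matches to AACNG, a short motif that 74.2% of all 32851 windows of this length hold. Of the 40 members with a window, 28 hold it. The Nxf2 window holds 5 copies of CACGTG toward the end nearest the start, whereas the windows of the other genes shown hold 0. At least 1 copy stands in 6.02% of all windows and in 8 of the 40 members' windows, and 5 of the 32851 windows hold at least 5. The window at the other start listed for Nxf2 holds 0. By base composition the Nxf2 window is 48.8% G and C with 16 CpG pairs, and that of Nxf1 71.2% with 30. The median over all windows is 52.4% with 6, and that over the 40 members' windows 63.0% with 21. These are matches of letters, and no binding was measured.

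The importin alpha genes, the adaptors that read the classical localisation signal, had almost equal signals on both arrays. All 5 that a probe set names alone were compared and lay within 1.5-fold, as did 88.0% of all compared genes. Their log2 ratios ran from -0.10 to 0.19 with a median of 0.03, against 0.07 for all genes. Kpna2, an isoform with high expression in dividing and meiotic cells, went from a wild type signal of 1569.5 to 1601.7 in UBR2-/- (0.03) by its 1 probe set. Kpna3 had 515.6 and 530.9 by its brightest probe set (0.04), and over its 3 probe sets the ratio ran from -0.01 to 0.20. Kpna4, the closest relative of Kpna3, was on the other side of 0, with 636.7 and 592.6 (-0.10). Its other probe set gave -0.04 but lay near the floor, at 29.4 and 28.5. By their brightest probe sets the close relatives were 0.15 apart. The probe set SDs of 0.11 for members and 0.21 for all genes are for the ratio of 1 probe set. A difference between ratios has a larger SD.

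Kpna1 was the isoform with the most probe sets. Its brightest read 215.8 and 214.1 (-0.01), and the others lay above 0, up to 0.22. Kpna6, which belongs to the same subfamily as Kpna1 and is required for male fertility in mice, had the highest ratio, with signals of 176.3 and 201.3 (0.19). Its other, dimmer probe set went the other way, with 39.7 and 35.3 (-0.17), so the direction of Kpna6 rested on the choice of probe set. Over all 13 probe sets of the family the ratios ran from -0.17 to 0.22, with 8 above and 5 below 0. The largest gap between isoforms, Kpna6 minus Kpna4, was 0.29, and taking each gene's mean over its probe sets brought the outermost isoforms to within 0.17. By brightest probe set the order was Kpna6, Kpna3, Kpna2, Kpna1 and Kpna4, and neighbours in it differed by at most 0.15. The SDs of 0.21 for all genes and 0.11 for members are for the ratio of 1 probe set, and a difference between ratios has a larger SD. By the mean over probe sets the order changed to Kpna1 (0.10), Kpna3 (0.08), Kpna2 (0.03), Kpna6 (0.01) and Kpna4 (-0.07), with Kpna6 and Kpna1 exchanging places.

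**Figure D3:**
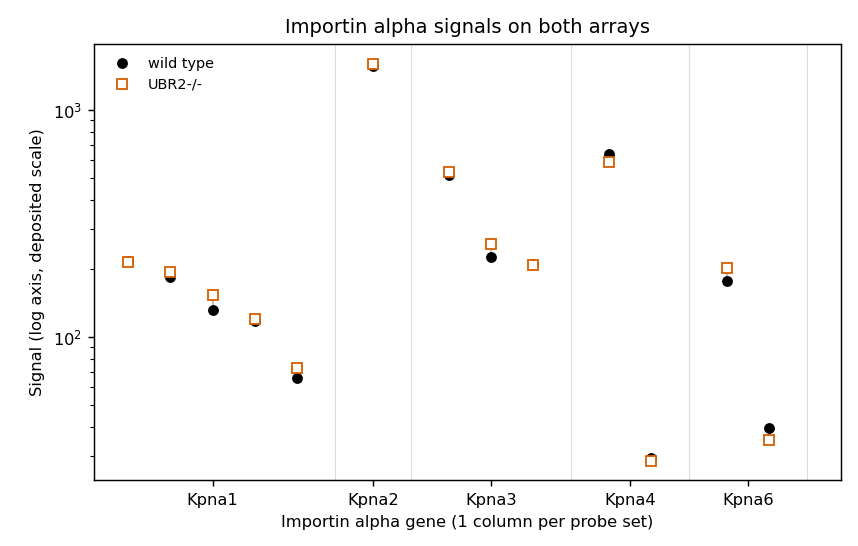
Signals of the 13 importin alpha probe sets on the wild type (black circles) and UBR2-/- (open squares) arrays, on a log axis, with 1 column per probe set grouped by gene. The symbols of a column lie close together throughout, with log2 ratios from -0.17 to 0.22, and heights are not comparable between probe sets.

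The import receptors of the importin beta family leaned to lower signals, with 10 of 10 compared genes within 1.5-fold against 88.0% of all genes. Of these 10, 8 were below 0, against 3315 of the 8091 compared genes. Below the median of all genes were 9 of the 10, and their own median was -0.10. Under the other ways of processing, spike-in scaling aside, that median ran from -0.15 to -0.07. Kpnb1, the importin beta that works with importin alpha, had 496 and 473.7 (-0.07), with a span over 4 probe sets from -0.36 to 0.03. The lowest was Tnpo2, a transportin that imports RNA-binding proteins, with 85.2 and 60.8 (-0.49) and -0.24 in its dim other probe set. Its relative Tnpo1 had 424.9 and 433.1 (0.03), and the ratio of Tnpo2 minus that of Tnpo1 was -0.51.

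Ipo5, an importin for ribosomal proteins and histones, was the next lowest, with a wild type signal of 738.2 and a UBR2-/- signal of 556.4 (-0.41). Its other probe set above the floor gave -0.34, so both readings were lower in UBR2-/- by similar amounts. Ipo7, which also carries histones and ribosomal proteins, was the highest of the family with 760.1 and 923.3 (0.28) by 1 probe set, and its close relative Ipo8 had 153.3 and 149 (-0.04). The other members were Ipo4 at -0.10, Ipo9 at -0.18, Ipo11 at -0.13 and Tnpo3, which imports SR splicing factors, at -0.11. Like Kpnb1, Tnpo3 had probe sets on both sides of 0, from -0.11 to 0.05.

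Among the exportins and their relatives, Ranbp17 stood apart from the other 6. Its probe sets read 135.9 and 87.1 in wild type against 64.2 and 37.9 in UBR2-/-, so that both gave a similar ratio, -1.08 and -1.20. Of the 8091 compared genes, 247 had a lower ratio than its brightest probe set. Xpo7, its closest relative and an exportin that also imports cargo, had 509.9 and 450.5 (-0.18), with 0.07 in its other probe set. The ratio of Ranbp17 minus that of Xpo7 was -0.90. The summed signal of the pachytene markers, 8640.3 and 1460.6, moved the same way as Ranbp17, and its part in the value was not tested.

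The other exportins lay between -0.38 and 0.19. Cse1l, which returns importin alpha to the cytoplasm, had the highest ratio, with 1051.2 and 1195.1 (0.19). Xpo1, the general exportin for leucine-rich export signals, had 1162.5 and 1241.7 (0.10) in the brightest probe set and 1280 and 1107.4 (-0.21) in another of nearly the same brightness, so its direction was not settled. Xpo6, the exportin for actin and profilin, had 444.6 and 342.6 (-0.38). Xpo5, which exports microRNA precursors, had 87.8 and 70.4 (-0.32), and Xpo4 had 83.9 and 88.2 (0.07).

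The 5 genes of the Ran cycle were all within 1.5-fold, against 88.0% of all genes, with 3 of 5 below 0 and a median of -0.13. That median was 0.01 with the mean over probe sets and -0.01 without probe sets ending in _s_at, _x_at or _a_at. Ran itself had 2105.7 and 1888.9 (-0.16) in the brightest probe set, and all 5 of its probe sets above the floor were lower in UBR2-/-, down to -0.43. Of these 5, 4 have names ending in _x_at, which marks probes that can bind other transcripts, and the fifth had the lowest ratio, with signals of 330.1 and 244.9. Rcc1, which loads Ran with GTP in the nucleus, had 75.1 and 88.8 (0.24). Rangap1, which triggers hydrolysis in the cytoplasm, had 129 and 117.7 (-0.13) in 1 probe set and 76.5 and 84.8 (0.15) in the other. Ranbp1, a helper of that step, had 755.2 and 813.2 (0.11), and Ranbp3, a cofactor of Xpo1, had 192.8 and 175.7 (-0.13).

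The receptors for mRNA export went in opposite directions. Nxf1, the general receptor for bulk mRNA, went from 770.7 in wild type to 598.3 in UBR2-/- (-0.37). Nxt1, which forms the dimer with Nxf1, had 650.1 and 423.9 (-0.62), and 574 of the 8091 genes had a lower ratio. Nxf2, the germ cell relative of Nxf1, had 410.1 and 683.4 (0.74), and 128 genes had a higher ratio. Nxf2 thus stood 1.10 above Nxf1. The SD of 0.21 is for the ratio of 1 probe set, and a difference between ratios has a larger SD. Neither SD holds error between animals. Each of these genes was read by 1 probe set, and those of Nxf1 and Nxf2 both have names ending in _a_at. Both drop out when such probe sets are left out, and Nxt1 is then the only member of the group.

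Nxf2 was the only X-linked member that was compared, and X-linked genes as a class were higher in UBR2-/-. Of 274 compared X-linked genes 53 (19.3%) were at least 1.5-fold higher, against 4.25% of all compared genes, and 0 were lower, against 7.71%. The X-linked median was 0.35, against 0.07 for all compared genes. Nxf2 was 0.39 above the X-linked median, and 26 X-linked genes had a higher ratio. The 48 autosomal members had 2 lower (4.17%, against 7.71% of all genes), 0 higher (against 4.25%) and a median of -0.06. With spike-in scaling Nxf2 was at 0.39, still above the median of all genes but no longer past 1.5-fold.

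The nucleoporins, the structural proteins of the pore, were all within 1.5-fold, 17 of 17 against 88.0% of all genes. They lay between -0.31 and 0.41, with 8 above and 9 below 0 and a median of -0.05. The Y complex, the outer ring scaffold, was centred close to all genes with a median of 0.06 over 6 genes. Its extremes were Nup37, with 337.5 and 271.9 (-0.31), and Nup133, with 567.3 and 666.3 (0.23), whose 3 probe sets above the floor were all above 0. Nup107, Nup85, Nup43 and Nup160 had 0.05, 0.08, 0.14 and -0.05. The inner ring genes Nup155, Nup93 and Nup188 had 0.04, -0.10 and -0.24.

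The central channel genes that the symbol rule takes in were all below 0, with a median of -0.20 over 3 genes. Below 0 lay 3315 of the 8091 compared genes. Nup98, which also makes the scaffold protein NUP96, had 272.6 and 231.5 (-0.24). Nup62, the core of the channel, had 425.1 and 369.2 (-0.20), and its 3 probe sets above the floor agreed, from -0.35 to -0.20. Nup54, its partner, had 394.2 and 378.3 (-0.06), with probe sets from -0.25 to 0.01. Nupl1, a further channel gene that the symbol rule misses, had 1097.7 and 1092.2 (-0.01), with probe sets from -0.21 to -0.01.

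On the cytoplasmic face Nup88 had 844.4 and 744.5 (-0.18), and Ranbp2, the large filament protein that carries SUMO ligase activity, had 755.3 and 768.9 (0.03). In the basket Nup153 had 668.6 and 644.3 (-0.05) and Nup50 had 211.2 and 244.3 (0.21), with probe sets from -0.08 to 0.21. Nup210, a membrane protein that is found in some cell types and not in others, had the highest ratio of the nucleoporins, with 113.7 in wild type and 151 in UBR2-/- (0.41) by 1 probe set. Its value lay above 0, as did those of 58.9% of all compared genes. The summed signals of the Sertoli cell markers were 6527.1 and 8810.1, with Amh lower. Those of the myoid markers were 2344.5 and 3398.9, and those of the spermatogonial markers 4400.3 and 4993.8. The pachytene markers went the other way, with 8640.3 and 1460.6. The part of any of these lists in the value of Nup210 was not tested.

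The symbol rule also takes in a pair of Ran-binding proteins known for roles outside transport, the scaffold proteins of the CTLH ubiquitin ligase complex. Ranbp9, which male germ cells need, had 571.1 and 455.8 (-0.33) and -0.38 in its other probe set. Ranbp10 had 202.4 and 220.8 (0.13) and 0.02 in the other. The ratio of Ranbp9 minus that of Ranbp10 was -0.45, with each gene's probe sets on 1 side of 0.

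**Figure D4:**
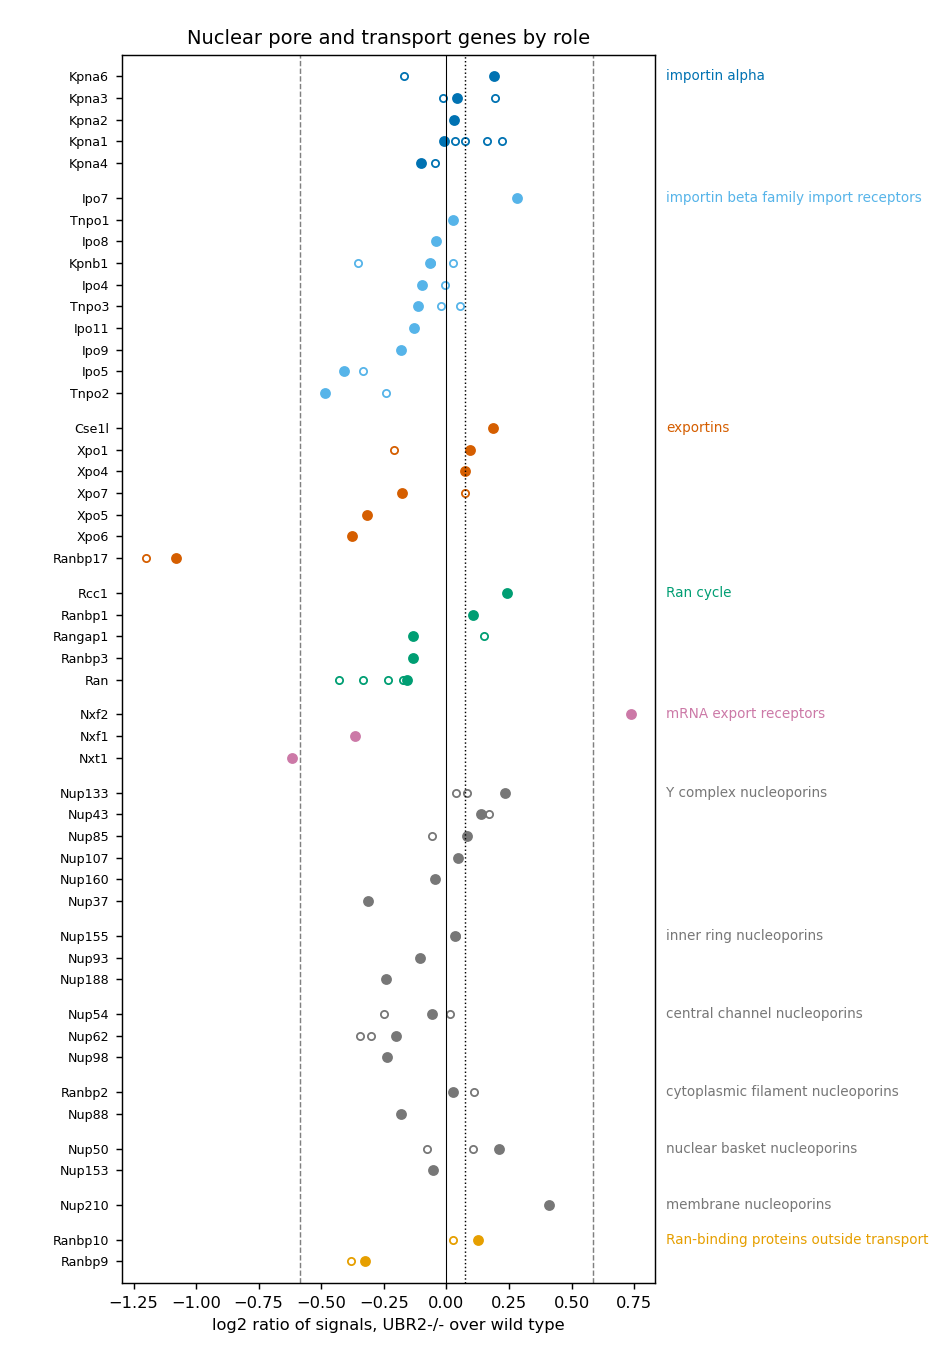
Log2 ratio of UBR2-/- over wild type signal (horizontal axis) for the 49 compared genes, grouped by role and ordered by ratio within each, with the brightest probe set as a filled circle and other probe sets above the floor as open circles. The dashed lines mark 1.5-fold, the solid line 0 and the dotted line the median of all genes at 0.07, and the filled circles past the dashed lines are Ranbp17, Nxt1 and Nxf2.

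Of 18 further pore and transport genes listed by function, 15 had a probe set that names the gene alone, and all 15 were compared. At least 1.5-fold lower were 2 (13.3%) against 7.71% of all genes, and 0 were higher against 4.25%, with a median of -0.01. Ddx19b, the helicase that strips export proteins from mRNA on the cytoplasmic face, had 406.7 and 205.1 (-0.99), and its other probe sets gave -1.02 and -0.58. Its close relative Ddx19a was not analysed here, and binding of both transcripts to these probes was not tested. Rangrf, a nuclear Ran-binding protein also called Mog1, had 689.2 and 400.6 (-0.78) by 1 probe set.

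Seh1l, a Y complex component that the symbol rule misses, was just inside the threshold, with 171.5 in wild type and 256.5 in UBR2-/- (0.58), and its 5 probe sets above the floor were all above 0. Hikeshi, which imports heat shock protein of the HSP70 class, had 192.2 and 264.3 (0.46), while its other probe set gave -0.04. The scaffold gene Ahctf1 had 844.9 and 648.1 (-0.38) against 0.10 in its other probe set. The membrane nucleoporin Pom121 had 846.1 and 877.7 (0.05), the mRNA export adaptor Alyref 429.9 and 384.2 (-0.16), and the tRNA exportin Xpot 249.4 and 250.3 (0.01). Ndc1, also a membrane nucleoporin, had 128.8 and 121.5 (-0.08) in its brightest probe set. Its other probe set was past 1.5-fold, with 63.4 and 41.8 (-0.60).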

How the data were processed

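The authors deposited a table of linear probe set intensities (signals), and MAS5 is named in the submitters' processing notes, without a version or settings; detection calls were not used here. Both columns have a 2% trimmed mean of 150.04, computed here, and that scale was kept. Of 22626 probe sets without controls, 20380 had 1 gene symbol, 691 several and 1555 none in the platform's gene annotation of uncertain age, and only the first were used. Chromosomes came from the GRCm38.p6 RefSeq gene table through Entrez identifiers, which matched all 50 members, and no genome build is named for the arrays. Promoter windows came from RefSeq on GRCm38.p6.

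Signals were floored at the 40th percentile before log2, so that a gene under it in 1 genotype has a bound only. Probe set SDs are the root mean square difference of the brightest pair of probe sets per gene, over the square root of the number in the pair. Calls used 1.5-fold. The number of arrays limits the precision. The members and lists were chosen with earlier results of these data known. Named genes are the importin alpha genes, members past 1.5-fold, the extremes of each role, X-linked members and related genes past 1.5-fold. The other members are named to complete their groups. Only some of the other related genes are named. Alternatives were scaling to medians or spike-ins (21 probe sets above the floor), quantile normalization, loess with a span of 0.3, a floor at the 25th or 60th percentile, a pseudocount of 10 without floor, averaging a gene's probe sets, no probe sets ending in _s_at, _x_at or _a_at, and a 2-fold threshold. The code was checked on simulated data, with set changes larger than 1.5-fold in genes of brighter signal. That check gives no error rate for the calls made here. Python 3.11.15, numpy 2.4.6 and pandas 2.3.3 were used.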

Additional observations from a re-analysis of the deposited data

How the results depend on the processing

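Ranbp17 and Nxt1 were at least 1.5-fold lower under all 9 other ways of processing. Nxf2 was at least 1.5-fold higher under 7 of the 9, the exceptions being spike-in scaling and leaving out probe sets ending in _s_at, _x_at or _a_at, each of which gave 0 members higher. Spike-in scaling, which lowers the ratio of every probe set by 0.34, gave 9 members lower and a median of -0.41. It also made another probe set of Xpo1 the brightest, which took that gene from 0.10 to -0.55. A threshold of 2-fold left 1 member lower and 0 higher. Away from spike-in scaling the members' median ran from -0.10 to -0.03. Of single genes and role medians, 470 of 536 recomputed values moved by less than the SD of a probe set, and 61 of the 66 that moved more did so under spike-in scaling. A floor at the 60th percentile took Ranbp17 to -0.60, since the UBR2-/- signal is below that floor. No paired analysis was possible because each genotype has 1 array.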

Other observations

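A pair of probe sets name a member together with another gene and were left out of the comparisons. The probe set for Ipo4 and Tm9sf1 went from 193.1 in wild type to 248.3 in UBR2-/- (log2 ratio 0.36), on the other side of 0 from the probe sets that name Ipo4 alone. The probe set for Xpo4 and Lats2 was below the floor on both arrays, at 18.3 and 19.3.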
